A study of Talaromyces pinophilus with 6 samples.

Results

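The 30 genes numbered *TP13224* to *TP13253* of the filamentous fungus *Talaromyces pinophilus* were followed, which are 14 genes, *TP13232* to *TP13245*, and the 8 genes by number on either side. The 14 genes were selected on the fold change between the mutant Δ*TP05746* and its parent Δ*TpKu70* in these same libraries, in which their transcripts were far lower in Δ*TP05746*, so their values, and the counts of them past a threshold, describe that choice and are no independent test of a difference between the strains. The 16 flanking genes were taken by number alone. Of the 30 genes, 29 were among the 11632 genes listed above 0 in at least 1 library, and *TP13226* was listed in none.

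The libraries were made from bulk mycelium grown on glucose, moved to medium with 1% (w/v) soluble corn starch and harvested at 12 h. The 3 libraries of Δ*TP05746* lack both *TP05746* and *TpKu70*, since *TP05746*, which codes for a Zn2Cys6 transcription factor, was deleted in Δ*TpKu70*. The 3 libraries of Δ*TpKu70* lack *TpKu70* alone, a gene of DNA end joining that was deleted in the wild-type strain 1–95. Both strains therefore share the *TpKu70* deletion, and the sources used here do not say which transformant of Δ*TP05746* was sequenced or whether libraries came from separate cultures, so the spread between libraries may in part be technical.

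In filamentous fungi, genes whose products act in 1 pathway, such as the synthesis of a pigment or toxin or the use of a nutrient, often lie side by side and are transcribed together. Zn2Cys6 proteins are a large fungal family of transcription factors, and some of them act on such neighbouring genes. A name was found here only for *TP13250*, an *ArpA*-like gene, which the study counts among genes of conidiation, the making of asexual spores. It annotates *ArpA* itself (*TP05092*) as a scytalone dehydratase, which in *Aspergillus fumigatus* is an enzyme of the melanin pathway that colours conidia. No annotation of the other 29 genes was used here, so they are given by number. Numbers that follow each other were taken as an order only, and positions on the genome were not analysed here.

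*TP05746* itself was listed at 0 in every Δ*TP05746* library, against 135, 42 and 28 fragments in Δ*TpKu70* (replicates 1, 2 and 3, the order used throughout). It was thus at least 33.7-fold lower in Δ*TP05746* against a floor of 3 counts per library, and at least 19.9-fold without Δ*TpKu70* replicate 1, bounds that cover counting error only. Library totals were 4091718 to 4190623 expected counts (fragments that the program RSEM assigned to a gene) in Δ*TP05746* and 4600785 to 4696455 in Δ*TpKu70*. Δ*TpKu70* replicate 1 stood apart. Over the log2 levels of the 8522 genes tested, its Pearson correlation with Δ*TP05746* libraries was 0.651 to 0.674, against 0.536 to 0.583 for the other Δ*TpKu70* libraries. Within Δ*TpKu70* it was 0.865 and 0.870 for pairs with replicate 1 and 0.943 for the remaining pair. Scaling factors between libraries (TMM) were 1.31 to 1.37 in Δ*TP05746* and 0.667 to 0.877 in Δ*TpKu70*. Scaling by library totals alone gave a median log2 fold change of 0.846 over all genes, in place of 0.0284.

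In Δ*TP05746* the 14 genes together took up almost none of the transcripts. In Δ*TpKu70* they were among the abundant genes, far less so in replicate 1 than in replicates 2 and 3. They made up 0.0668%, 0.0236% and 0.0827% of the expected counts in Δ*TP05746*, against 0.444%, 3.86% and 2.29% in Δ*TpKu70*. The mean share was 0.0577 ± 0.0306% in Δ*TP05746* and 2.20 ± 1.71% in Δ*TpKu70* (SD, n = 3 each). Every Δ*TP05746* library lay below every Δ*TpKu70* library, but Δ*TpKu70* replicate 1 lay nearer to Δ*TP05746* than to Δ*TpKu70* replicate 2 on this scale. Without Δ*TpKu70* replicate 1, the mean of Δ*TpKu70* was 3.08%, and without replicate 2 it was 1.37%. In bulk mycelium, fewer cells that carry a transcript and less of it per cell cannot be told apart.

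**Figure D1:**
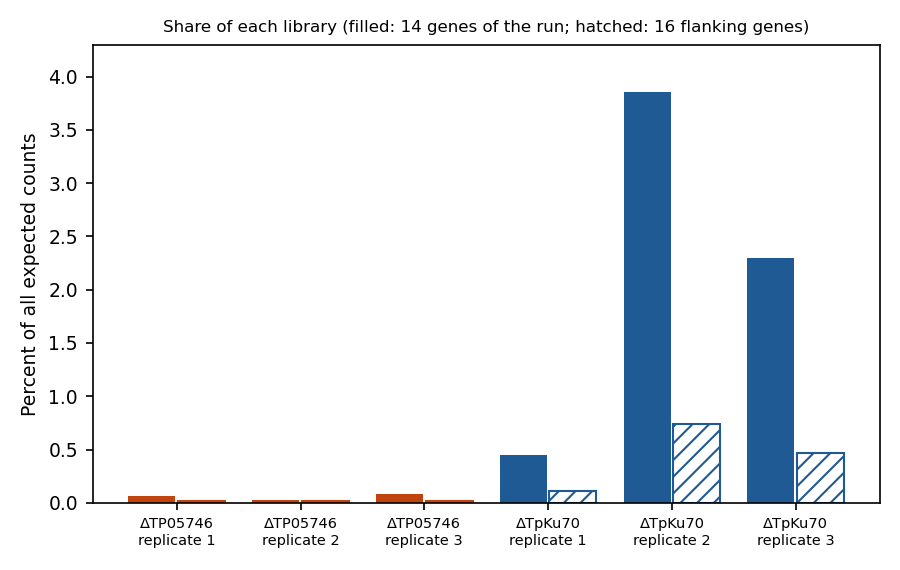
Percent of all expected counts in each library, Δ*TP05746* on the left and Δ*TpKu70* on the right, for the 14 genes *TP13232* to *TP13245* (filled bars) and the 16 flanking genes (hatched bars). The 14 genes took 0.0236% to 0.0827% in Δ*TP05746* and 0.444% to 3.86% in Δ*TpKu70*.

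Read by FPKM, which accounts for gene length and library size, the median over the 14 genes of their mean level was 2.33 FPKM in Δ*TP05746* and 1162 FPKM in Δ*TpKu70*, against 19.1 FPKM in Δ*TP05746* and 11.7 FPKM in Δ*TpKu70* over all 8522 genes tested. Of the 100 genes with the highest mean FPKM in Δ*TpKu70*, 7 were among the 14, and 0 were among the 100 highest in Δ*TP05746*. That mean rests on Δ*TpKu70* replicates 2 and 3. By expected counts in single libraries, 0, 10 and 8 of the 14 were among the 100 highest in Δ*TpKu70*, and 0 in each Δ*TP05746* library. Genes entered the fit when 3 or more libraries had 1 FPKM or more, which all 14 did. *TP13232*, *TP13237* and *TP13238* had less than 1 FPKM in every Δ*TP05746* library. They entered through the Δ*TpKu70* libraries alone, so a higher call was not open to them. All 14 were past its threshold in the lower direction (adjusted p of at most 0.05 in edgeR's quasi-likelihood test and a log2 fold change of at most −1), as were 20.5% of all genes tested. None of the 14 was higher in this test, with or without adjustment of p, or in DESeq2, while 18.2% of all genes were higher in the edgeR test. In all 14, every Δ*TP05746* library lay below every Δ*TpKu70* library in CPM (counts scaled by library total and TMM factor), as in 29.9% of all genes tested. Their median log2 fold change was −9.57, against 0.0284 over the full set. These counts repeat what the 14 genes were chosen for. Under all 17 alternatives the number was 13 or 14, with *TP13234* the gene that was lost.

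The first genes of the stretch showed both forms that the level took in Δ*TP05746*, near absence and a level that remained high. *TP13232* had 0.43, 0.11 and 0.26 FPKM in Δ*TP05746*, against 27.7, 461 and 159.6 FPKM in Δ*TpKu70*. Its counts and FPKM imply a length of about 7869 bases, the longest among those of the 30 genes that have such an estimate, and its log2 fold change was −10.44 (standard error 1.43). *TP13233* had 20.7, 5.59 and 29.7 FPKM in Δ*TP05746*, against 297, 3983 and 2349.5 FPKM in Δ*TpKu70*, with no overlap between the strains and a log2 fold change of −7.69 (standard error 1.31). *TP13234* had 352, 117 and 511 FPKM in Δ*TP05746*, against 563, 2205 and 1398 FPKM in Δ*TpKu70*, so that its highest Δ*TP05746* library came close to its lowest Δ*TpKu70* library. It averaged 309 ± 187 CPM in Δ*TP05746* and 2253 ± 1415 CPM in Δ*TpKu70* (SD, n = 3 each), and its log2 fold change of −2.87 (standard error 0.75) was the smallest in size of the 14. It was not past the threshold without Δ*TP05746* replicate 1, without Δ*TpKu70* replicate 2 and with the replicate number as a block.

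The next genes, *TP13235* to *TP13238*, were near 0 in Δ*TP05746*. *TP13235* had 3.18, 1.17 and 3.54 FPKM in Δ*TP05746*, against 125, 3098 and 1853 FPKM in Δ*TpKu70*. *TP13236* followed with 1.91, 0.27 and 0.74 FPKM in Δ*TP05746*, against 120.0, 1444 and 691 FPKM in Δ*TpKu70*. In both genes each strain formed a group of its own, although Δ*TpKu70* replicate 1 lay many times below Δ*TpKu70* replicate 2. *TP13237* had 6, 2 and 5 expected counts in Δ*TP05746*, against 185, 5088 and 2698 expected counts in Δ*TpKu70*, and *TP13238* had 4, 1 and 5 expected counts in Δ*TP05746*, against 346, 7393 and 4515 expected counts in Δ*TpKu70*. Their Δ*TP05746* levels thus rest on 1 to 6 fragments per library and their folds are imprecise. The log2 fold changes of these genes were −10.13 (standard error 1.51) for *TP13235*, −10.36 (standard error 1.41) for *TP13236*, −9.96 (standard error 1.53) for *TP13237* and −10.95 (standard error 1.54) for *TP13238*, the last being the largest decrease of the 14 genes.

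*TP13239* to *TP13243* had between 2 and 116 fragments in each Δ*TP05746* library. *TP13240* had the most counts of the 14 in every Δ*TpKu70* library, with 14.9, 4.8 and 13.5 FPKM in Δ*TP05746*, against 441, 3564 and 2149.6 FPKM in Δ*TpKu70*. *TP13239* had 5.14, 1.31 and 4.84 FPKM in Δ*TP05746*, against 430.1, 2235 and 1731 FPKM in Δ*TpKu70*, and *TP13241* had 4.43, 3.29 and 5.08 FPKM in Δ*TP05746*, against 208, 2518 and 1695 FPKM in Δ*TpKu70*. The strains did not overlap in any of these genes, and the log2 fold changes were −9.38 (standard error 1.05), −8.33 (standard error 1.12) and −9.23 (standard error 1.18) for *TP13239*, *TP13240* and *TP13241*. *TP13242* had the shortest implied length, about 218 bases, among those of the 30 genes that have such an estimate. It had 2, 2 and 2 expected counts in Δ*TP05746*, against 105, 1731 and 1014 expected counts in Δ*TpKu70* (log2 fold change −9.54, standard error 1.37). For *TP13243* there were 0.49, 0.49 and 1.19 FPKM in Δ*TP05746*, against 44.8, 607 and 326 FPKM in Δ*TpKu70* (log2 fold change −9.60, standard error 1.28).

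The last pair of the stretch set a gene with at least 252 counts in each Δ*TP05746* library beside one with at most 12. *TP13244* had 133, 69.4 and 111 FPKM in Δ*TP05746*, against 604, 681 and 677 FPKM in Δ*TpKu70*. In FPKM its highest Δ*TpKu70* library was 12.8% above its lowest, whereas the highest was 3.91-fold to 27.7-fold the lowest in the other 13 genes. In CPM, which carries the TMM factors, the highest was 1.45-fold the lowest, Δ*TpKu70* replicate 1, against 4.71-fold to 33.2-fold in the other 13 genes. It averaged 69.9 ± 24.6 CPM in Δ*TP05746* and 724 ± 136 CPM in Δ*TpKu70* (SD, n = 3 each), with a log2 fold change of −3.37 (standard error 0.35). *TP13245* had 1.9, 2.33 and 1.36 FPKM in Δ*TP05746*, against 403, 2388 and 1809.9 FPKM in Δ*TpKu70*, a log2 fold change of −10.47 (standard error 1.00). *TP13234* and *TP13244* together made up 86.2%, 87.0% and 88.2% of the counts of the 14 genes in Δ*TP05746*, against 26.2%, 8.07% and 9.47% in Δ*TpKu70*. The other 12 genes had log2 fold changes between −10.95 and −7.69.

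**Figure D2:**
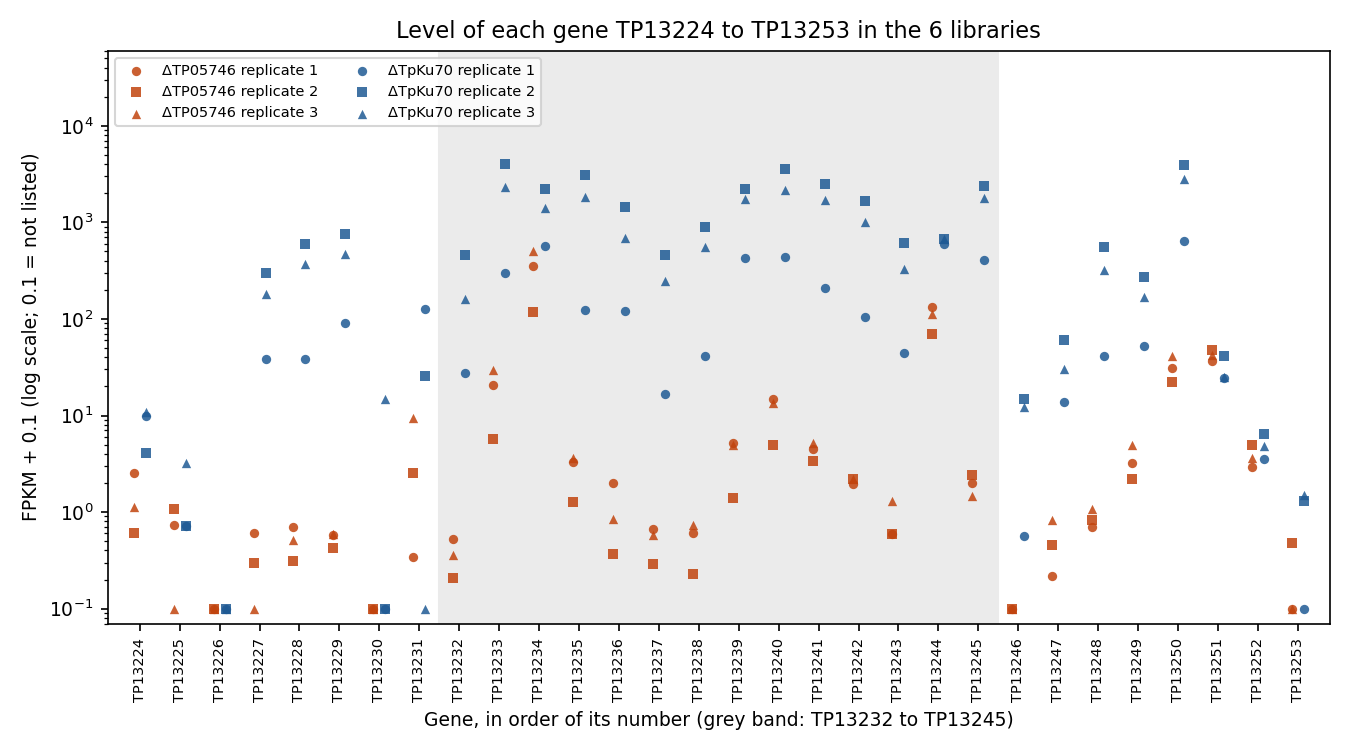
FPKM plus 0.1 of each gene on a log axis, in order of gene number, with Δ*TP05746* libraries (red, left of each gene) and Δ*TpKu70* libraries (blue, right), and 1 symbol per replicate. Within the grey band, *TP13234* and *TP13244* remain at 69.4 FPKM or more in every Δ*TP05746* library, and outside it *TP13226* is listed in no library.

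Going down in number from the first gene of the band, the edge was not sharp. *TP13231*, next to *TP13232*, had 0.61, 5.77 and 22.0 expected counts in Δ*TP05746*, against 321, 64.2 and 0 expected counts in Δ*TpKu70*. *TP13230* was listed only in Δ*TpKu70* replicate 3, with 28.4 expected counts. Both have decimals in their counts, which means that RSEM shared reads between gene models, so their levels are uncertain. *TP13231* overlapped between the strains, ran highest in Δ*TpKu70* replicate 1 and was not past the threshold (log2 fold change −4.22, standard error 1.69). Without Δ*TpKu70* replicate 3, in which it was listed at 0, it was past the threshold at −4.80. Without Δ*TP05746* replicate 3 it was at −5.65 and without Δ*TpKu70* replicate 1, its highest library, at −2.47, neither past the threshold.

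Beyond these genes, 3 more had the same form as the band. *TP13229* had 0.48, 0.32 and 0.49 FPKM in Δ*TP05746*, against 90.6, 764 and 471 FPKM in Δ*TpKu70*. *TP13228* had 0.6, 0.21 and 0.41 FPKM in Δ*TP05746*, against 38.8, 601 and 367 FPKM in Δ*TpKu70*, and *TP13227* had 0.5, 0.2 and 0 FPKM in Δ*TP05746*, against 38.8, 302 and 179.7 FPKM in Δ*TpKu70*. No Δ*TP05746* library reached 1 FPKM in any of these genes, and the lowest Δ*TpKu70* value was 38.8 FPKM. Their log2 fold changes were −10.78 (standard error 1.13), −10.39 (standard error 1.39) and −10.25 (standard error 1.26). *TP13226* was not listed and *TP13225* had at most 3 counts in Δ*TP05746* and at most 10 in Δ*TpKu70*. *TP13224* had 2.41, 0.51 and 1.02 FPKM in Δ*TP05746*, against 9.86, 4.04 and 10.8 FPKM in Δ*TpKu70* (log2 fold change −3.35, standard error 0.68), with a lower level in Δ*TpKu70* than these 3 genes and a smaller decrease.

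At the other edge, *TP13246* had 0, 0 and 0 expected counts in Δ*TP05746*, against 2.04, 63.0 and 51.4 expected counts in Δ*TpKu70*, with decimals in its counts. It had too few libraries at 1 FPKM to be tested. Against a floor of 3 counts per library its Δ*TpKu70* mean was at least 22.1-fold higher, and at least 32.7-fold without Δ*TpKu70* replicate 1. These bounds cover counting error only, and Δ*TpKu70* replicate 1 itself lay below that floor. *TP13247* had 0.12, 0.36 and 0.72 FPKM in Δ*TP05746*, against 13.6, 61.1 and 30.3 FPKM in Δ*TpKu70* (log2 fold change −7.18, standard error 0.87), and *TP13248* had 0.6, 0.72 and 0.97 FPKM in Δ*TP05746*, against 41.6, 562 and 319 FPKM in Δ*TpKu70* (log2 fold change −9.44, standard error 1.23). *TP13249* had 3.09, 2.08 and 4.85 FPKM in Δ*TP05746*, against 52.8, 273 and 168 FPKM in Δ*TpKu70* (log2 fold change −6.41, standard error 0.81). In *TP13247* to *TP13249* every Δ*TP05746* library lay below every Δ*TpKu70* library. *TP13247* was the lowest of them in Δ*TpKu70*.

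The *ArpA*-like gene *TP13250* ended the stretch of low values on this side. It had 30.9, 22.3 and 41.0 FPKM in Δ*TP05746*, against 638, 3924 and 2788 FPKM in Δ*TpKu70*, the highest mean FPKM in Δ*TpKu70* of the 30 genes. It averaged 14.2 ± 4.32 CPM in Δ*TP05746* and 1913 ± 1353 CPM in Δ*TpKu70* (SD, n = 3 each), with no overlap and a log2 fold change of −7.07 (standard error 0.88). Its counts have decimals, so that part of its reads is shared with another gene model and its level is uncertain. *ArpA* (*TP05092*) had 0, 0 and 0 expected counts in Δ*TP05746*, against 2, 2 and 2 expected counts in Δ*TpKu70*, and the other *ArpA*-like gene, *TP06809*, had 0, 1 and 0 expected counts in Δ*TP05746*, against 1, 4 and 4 expected counts in Δ*TpKu70*, so both were at or near the floor in the 2 strains and no fold is given. Of the 13 genes of conidiation that the study names, which it chose on these libraries, 12 were tested, 7 were lower, 3 were higher and 2 were not past the threshold. The 7 lower genes include *TP13250* itself, *TP05092* at the floor and *TP05897*. *TP05092* entered the fit through Δ*TpKu70* alone, at 1.08, 1.08 and 1.1 FPKM, so a higher call was not open to it. *TP05897* had 2, 0 and 0 expected counts in Δ*TP05746*, against 3, 5 and 7 in Δ*TpKu70*. The background was 20.5% for lower and 18.2% for higher genes, as above. Over the alternatives the number of lower conidiation genes was between 2 and 7. Without Δ*TP05746* replicates 1, 2 and 3 in turn it was 4, 3 and 4, and without Δ*TpKu70* replicates 1, 2 and 3 in turn it was 7, 2 and 3.

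The 3 genes after it did not have this form. *TP13251* had 36.3, 47.6 and 42.4 FPKM in Δ*TP05746*, against 24.3, 41.2 and 25.0 FPKM in Δ*TpKu70*, with overlapping strains. Its log2 fold change of −0.28 (standard error 0.28) was not past the threshold, and its sign turned with the scaling, to 0.58 with library totals. *TP13252* had 2.8, 4.9 and 3.49 FPKM in Δ*TP05746*, against 3.48, 6.4 and 4.76 FPKM in Δ*TpKu70*, and a log2 fold change of −1.15 (standard error 0.41), which was not past the threshold. Its strains overlapped in FPKM but not in CPM, at 2.61, 4.19 and 3.07 CPM in Δ*TP05746*, against 4.42, 9.80 and 7.82 CPM in Δ*TpKu70*. *TP13253* had at most 2.81 expected counts in Δ*TP05746* and at most 10.7 in Δ*TpKu70*. Of the 16 flanking genes, 11 were tested, 8 were lower, beside 20.5% of all genes tested, and 3 were not past the threshold, with a median log2 fold change of −7.07. Of the 8, *TP13227*, *TP13228*, *TP13229*, *TP13247* and *TP13248* had less than 1 FPKM in every Δ*TP05746* library. They entered the fit through Δ*TpKu70* alone, so a higher call was not open to them and these counts are a description. From *TP13227* to *TP13250*, 22 of 24 genes were tested and 21 were past the threshold and lower, beside the same 20.5%. *TP13232*, *TP13237* and *TP13238*, within this stretch, also entered through Δ*TpKu70* alone. *TP13231* was not past the threshold, *TP13230* and *TP13246* were not tested, and all 3 have decimals in their counts. *TP13224*, outside this stretch, was also past the threshold, while *TP13225* was not tested and *TP13226* was not listed, so the calls do not fix the end on the side of the lower numbers. This longer stretch was read from the same contrast that chose the 14 genes.

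**Figure D3:**
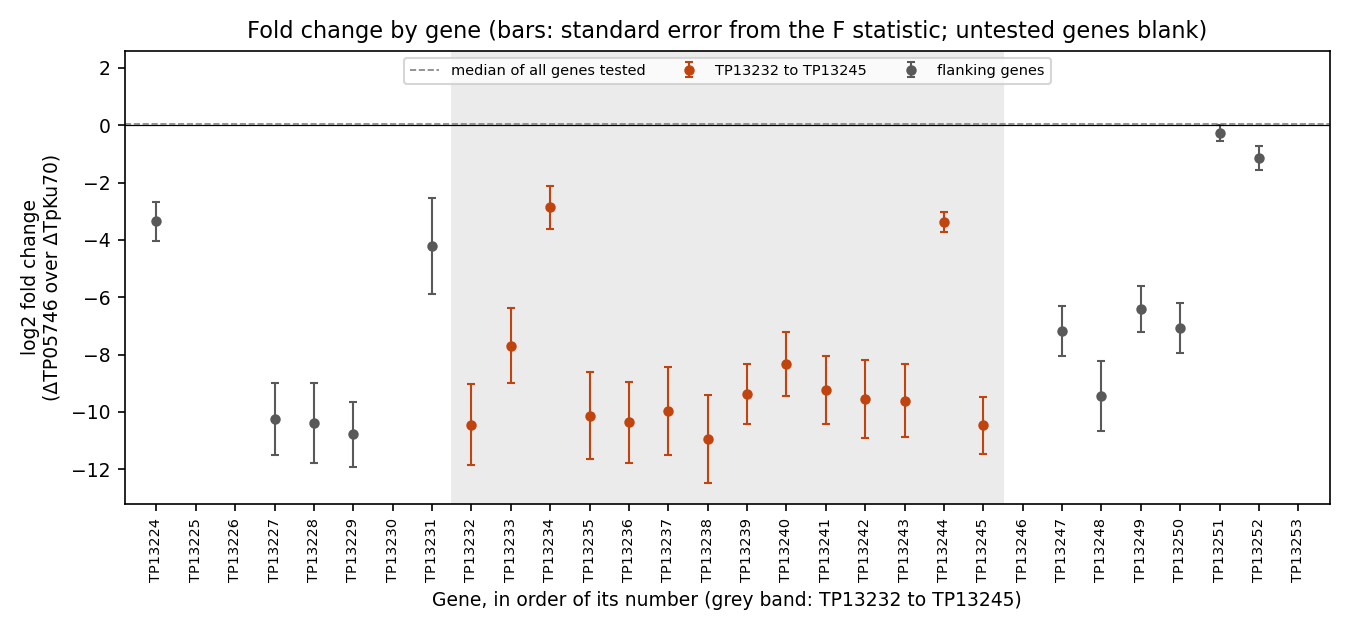
Log2 fold change (Δ*TP05746* over Δ*TpKu70*) of the 25 genes tested, in order of gene number, with standard errors derived from the F statistic. The genes *TP13232* to *TP13245* (red) lie between −10.95 and −2.87, and among the flanking genes (grey) *TP13251*, whose sign turns with the scaling, and *TP13252* lie nearest to 0.

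Differences between libraries of 1 strain were not themselves used to choose the genes, but they may not be independent of the fold change that was used. In Δ*TpKu70*, 13 of the 14 genes stood in the order replicate 1, replicate 3, replicate 2 from low to high, with *TP13244* the exception, as did 17.5% of all genes tested and 25.2% of those lower in Δ*TP05746*. Those lower genes had a median log2 fold change of −2.51, against −9.57 in the 14, so they are not matched in its size. Δ*TpKu70* replicate 1 lay below the mean of the other Δ*TpKu70* libraries by a median log2 difference of −3.62 over the 14 genes, against 0.0186 over all genes tested and −0.517 over those past the threshold and lower. For single genes this difference ran from −4.66 in *TP13237* to −0.49 in *TP13244*, with *TP13234* at −1.96. The pair of genes that remained highest in Δ*TP05746* thus had the smallest differences within Δ*TpKu70*. Of the 11 flanking genes tested, 9 had the same order, and *TP13224* and *TP13231* did not. *TP13251*, which did not differ past the threshold between the strains, had a difference of −0.72, and *TP13250* had −2.70. Since Δ*TpKu70* replicate 1 differed from the other Δ*TpKu70* libraries across many genes, the part of that library in these differences was not tested.

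Among the Δ*TP05746* libraries, replicate 2 was the lowest for 13 of the 14 genes, *TP13245* excepted, as it was for 34.5% of all genes tested and for 36.1% of those lower in Δ*TP05746*. Its median log2 difference from the other Δ*TP05746* libraries was −1.52 over the 14 genes, against −0.0109 over all genes tested. *TP13233* had the largest difference, of −2.21, with 36 counts in replicate 2 against 135 and 190 in replicates 1 and 3. In *TP13234* the difference was −1.93 on 608, 1856 and 2631 counts, and in *TP13240* it was −1.62 on 37, 116 and 103 counts. These 3 genes had at least 36 counts in every Δ*TP05746* library, whereas 6 of the 14 had at most 5 counts in replicate 2. *TP13242* and *TP13243* count as lowest there only after scaling, since replicate 2 had as many counts as another Δ*TP05746* library. From *TP13241* to *TP13245* the differences were −0.60, −0.07, −0.66, −0.90 and 0.42, smaller in size than in the lower-numbered genes of the 14. Of these, *TP13244*, at −0.90, had 499, 252 and 403 counts. *TP13242* had 2 counts per library and *TP13245* had 10, 12 and 7, so their differences are imprecise. Among the 11 flanking genes tested, replicate 2 was lowest in 5, with a median difference of −0.14. All genes of a library share its RNA and its scaling, so these orders describe 6 libraries and carry no test.

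**Figure D4:**
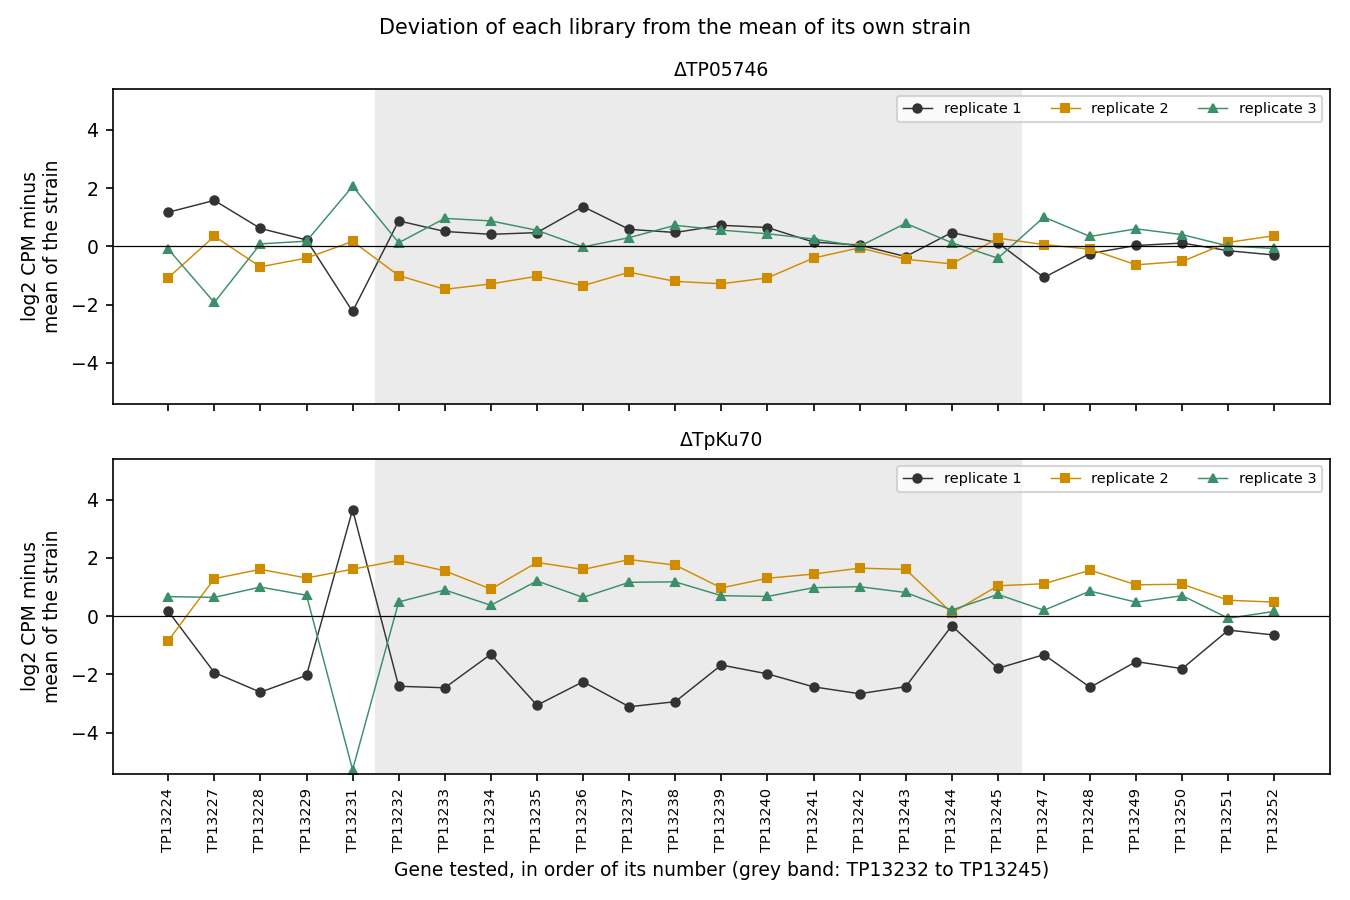
Log2 CPM of each library minus the mean of its own strain, for the 25 genes tested in order of number, Δ*TP05746* above and Δ*TpKu70* below, with 0.5 counts added before the logarithm. Δ*TpKu70* replicate 1 lies lowest in all 14 genes of the grey band, least so in *TP13244*, and Δ*TP05746* replicate 2 lies lowest in 13 of them.

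The 14 genes had whole-number counts, as did most genes tested. None of the 14 had a decimal in any library, against 18.8% of all genes tested, so no sharing of reads with other gene models was visible. Of the 15 flanking genes listed, 5 had decimals, among them *TP13230*, *TP13246* and *TP13253*, which were not tested. Their implied lengths ran from about 218 bases in *TP13242* to about 7869 bases in *TP13232*. Of the 200 genes with the lowest log2 fold change among all 8522 tested, 12 were among the 14 and 6 among the flanking genes. *TP13234* and *TP13244* were not among them, at ranks 759 and 601 from the lowest.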

How the data were processed

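RNA of 3 Δ*TP05746* and 3 Δ*TpKu70* libraries was analysed. According to the methods, reads were mapped to the strain 1–95 genome. The submitters' processing notes list RSEM 1.2.12, Bowtie2 2.1.0 and BWA 0.7.10-r789, besides DESeq2. The deposited expected counts are the authors' RSEM estimates without scaling, and the FPKM values are the authors' values from that program, scaled by gene length and library size. A gene not listed was read as 0. Expected counts were rounded and tested with edgeR 4.0.16 (quasi-likelihood, two-sided, TMM factors, R 4.3.3) over 8522 genes, with Benjamini-Hochberg adjustment over all of them. Standard errors were derived as the absolute log2 fold change over the square root of F. Implied length is the median of count over FPKM and library total, where FPKM was at least 5. It is the length behind the FPKM values and may differ from the annotated gene length, which was not used here. The members and lists were chosen with earlier results of these data known, and every member could be named. The 19 alternatives were other scalings, filters and tests (limma 3.58.1, DESeq2 1.42.0), the block and each library left out. The edgeR script was tested on simulated data. Gene numbers had no match in a table of strain AR155, and no sequence is shown.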

Additional observations from a re-analysis of the deposited data

How the results depend on the processing

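Of 421 recomputed log2 fold changes of the 25 genes tested, 409 kept their direction and their side of the threshold, 3 lost it (all *TP13234*) and 5 passed it (*TP13231* and *TP13252*). *TP13251* turned to 0.58 with library totals, to 0.50 and 0.52 with limma on log2(FPKM + 1) and log2(FPKM + 0.1), and with a library left out it lay between −0.501 and 0.054, the highest without Δ*TpKu70* replicate 2. The cause was not tested. With limma on log2(FPKM + 1), the median log2 fold change was −7.31 for the 14 genes and −5.02 for the flanking genes. With a library left out, it lay between −10.13 and −8.89 and between −7.57 and −6.50. The mean share of the 14 genes then lay between 0.0452% and 0.0747% in Δ*TP05746* and between 1.37% and 3.08% in Δ*TpKu70*. Over all genes, 1749 were lower and 1550 higher. With library totals these were 1059 and 3291, with limma on log2(FPKM + 1) 1069 and 3123 and on log2(FPKM + 0.1) 1107 and 3232. With a library left out, 1434 to 2011 were lower and 1130 to 2137 higher, the highest of each without Δ*TpKu70* replicate 1. Lower conidiation genes numbered 2 with library totals, 3 with limma on either scale, 4 without a filter, 4 with the replicate block and 2 to 7 with a library left out, the fewest without Δ*TpKu70* replicate 2. Replicate numbers did not pair the libraries (correlations of same-numbered deviations −0.0756, −0.0339 and 0.00512). With the replicate block, 13 of the 14 genes and 8 flanking genes were lower, and 1512 of all genes were lower and 1380 higher. Depth limits the Δ*TP05746* levels of genes with few counts, such as *TP13242* at 2 counts per library.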
